A study of Mus musculus with 2 samples.

Results

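The eosinophil and basophil genes described here are 10 genes taken by symbol, of 43346 Ensembl genes measured in the spleen of newborn mice. They are the granule protein genes Prg2, Prg3, Epx, Ear1, Ear2 and Ear6, the receptor genes Il5ra, Siglecf and Ccr3, and the basophil protease gene Prss34. All 10 were found in both gene tables. The samples were 2 whole spleens of B6NCrl mice, a C57BL/6 substrain, taken at postnatal day 0 from 2 pups of 1 pregnancy, untreated as far as the labels state. Replicate 1 is pup 2 and replicate 2 is pup 1, and sex was not collected. Total RNA longer than 200 nt was sequenced from 10 ng per spleen. The libraries held 33122187 and 32162543 estimated counts in replicates 1 and 2. With 1 group of 2 littermates there was no contrast between conditions, so no test was made, and the differences given below are differences between 2 pups or their libraries.

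Eosinophils and basophils are rare granulocytes that develop from myeloid progenitors. Eosinophils carry granules filled with cationic proteins: major basic protein, eosinophil peroxidase and ribonucleases of the eosinophil-associated (Ear) family. Interleukin 5 drives their production through its receptor, and eotaxins call them into tissue through the receptor CCR3. Basophils share early regulators with mast cells and release proteases, histamine and interleukin 4. In newborn mice the spleen is a site of blood cell formation. The granule genes are transcribed mainly in immature granulocytes, so their RNA and their protein need not be highest in the same cells.

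The Ear genes are close copies of each other, which sets how surely reads can be given to 1 of them. A 60-nt stretch of coding sequence was picked because no other of that length held more differences between Ear1 and Ear2. It therefore overstates the distance of that pair. The stretch (nt 96 to 155, counted from 1 at the start of the coding sequence of the GENCODE M21 transcripts, mm10) is shown with capitals where a gene differs from Ear2.
Ear2, chr14:44102982-44103041, plus strand: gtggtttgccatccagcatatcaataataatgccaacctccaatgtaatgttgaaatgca
Ear1, chr14:43819255-43819314, minus strand: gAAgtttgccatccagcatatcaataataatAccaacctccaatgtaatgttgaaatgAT
Ear6, chr14:51854093-51854152, plus strand: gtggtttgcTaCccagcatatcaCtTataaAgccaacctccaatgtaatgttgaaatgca
Ear10, chr14:43923214-43923273, minus strand: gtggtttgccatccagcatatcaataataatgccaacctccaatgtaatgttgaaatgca
Ear1 and Ear6 each differed from Ear2 at 5 of these 60 positions, whereas Ear10, an Ear gene that is not among the 10, was identical to Ear2 here. Over the whole coding sequence Ear1 and Ear2 were 95.7% identical (445 of 465 aligned nt), and Ear2 and Ear10 97% (454 of 468). Ear6 was further away, at 88.2% identity to Ear2 and 87.3% to Ear1. Of all 100-nt windows of the annotated transcripts, 86 of 620 windows of Ear2 also occurred in another gene's transcripts (Ear10 or the pseudogene Ear-ps2), as did 147 of 614 windows of Ear1 (Ear10 or the pseudogene Ear-ps9). No window of the other 8 genes was shared. The windows came from GENCODE M21, whose transcripts of Ccr3 and Prss34 differ in length from those measured. Of the 5 Siglecf transcripts, 4 have the same length.

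The likeness of Ear1 and Ear2 extends upstream. The 250 bases before the transcription start are shown for this pair, which stood far apart in level, and for Prss34 and Epx, the genes with the highest and the lowest mean level. They are RefSeq promoters on GRCm38.p6, written 5′ to 3′ on the gene's strand, with capitals on matches to GATA (the core of GATA factor motifs), TTNNGNAA (a C/EBP-type motif) or TGTGGT (a RUNX-type motif) on either strand.
Ear2 promoter, chr14:44102404-44102653, plus strand: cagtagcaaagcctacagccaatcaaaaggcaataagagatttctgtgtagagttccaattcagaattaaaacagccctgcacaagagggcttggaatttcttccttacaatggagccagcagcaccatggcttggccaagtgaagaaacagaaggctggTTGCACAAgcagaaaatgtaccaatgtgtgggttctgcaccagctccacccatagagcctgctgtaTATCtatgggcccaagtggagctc
Ear1 promoter, chr14:43819640-43819889, minus strand: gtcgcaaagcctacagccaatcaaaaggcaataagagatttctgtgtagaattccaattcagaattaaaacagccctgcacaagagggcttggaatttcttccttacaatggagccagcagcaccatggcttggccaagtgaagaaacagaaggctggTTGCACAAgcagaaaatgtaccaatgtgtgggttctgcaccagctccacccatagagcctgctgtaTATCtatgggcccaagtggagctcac
Prss34 promoter, chr17:25298144-25298393, plus strand: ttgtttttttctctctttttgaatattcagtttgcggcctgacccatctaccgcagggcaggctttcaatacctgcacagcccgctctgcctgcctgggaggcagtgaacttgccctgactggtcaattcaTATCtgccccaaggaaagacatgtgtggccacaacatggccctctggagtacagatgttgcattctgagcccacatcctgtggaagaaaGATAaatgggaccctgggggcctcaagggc
Epx promoter, chr11:87875537-87875786, minus strand: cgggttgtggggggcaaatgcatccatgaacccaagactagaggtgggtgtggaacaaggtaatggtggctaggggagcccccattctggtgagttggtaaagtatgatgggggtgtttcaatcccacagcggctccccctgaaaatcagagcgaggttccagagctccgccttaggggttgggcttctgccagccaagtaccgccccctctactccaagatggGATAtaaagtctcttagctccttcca
The Ear1 and Ear2 promoters were identical at 246 of 248 aligned bases (99.2%), and both held the same 2 matches, 1 to GATA and 1 to TTNNGNAA. The Ear1 window lies inside the annotated Ear1 span, just upstream of the transcript Ear1-201. Of the 10 genes, 9 had a promoter in the RefSeq table, and all 9 held GATA at least once. Since 53.4% of all 32538 promoters of that length held it, a match is common. GATA occurred more than once in 3 of the 9 (4 matches in Ccr3, 2 in Prg3 and 2 in Prss34), beside 24.1% of all promoters. TTNNGNAA occurred in 6 of 9 (36.8% of all promoters), and TGTGGT in Prg3 alone (14% of all). The Ear promoters are copies of each other and not independent cases, and a match describes letters, not a bound site.

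Transcripts of all 10 genes were detected in both spleens, but most of their RNA came from 3 of them. Levels are the deposited TPM, a measure of transcript abundance that allows for transcript length and sequencing depth. Both values are given, followed by their mean ± SD (n = 2). Prss34, Ear2 and Prg2 held 91.6% and 90.3% of the summed TPM of the 10 genes in replicates 1 and 2. At 1 TPM or more in both libraries stood 5 of the 10, namely Prss34, Ear2, Prg2, Prg3 and Siglecf. Of all Ensembl genes 31.0% reached that level in both. That share includes noncoding genes and pseudogenes, whereas the 10 genes are protein-coding, and the share among coding genes was not computed. By mean level Siglecf, the lowest of the 5, stood above 45.9% of protein-coding genes. The other 5 stayed under 1 TPM in both libraries, with 3 to 45 counts each. The 10 genes together summed to 45.8 and 67.5 TPM (56.6 ± 15.3), or 0.00458% and 0.00675% of all TPM. In whole spleen, fewer cells of a type and less RNA per cell cannot be told apart.

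**Figure D1:**
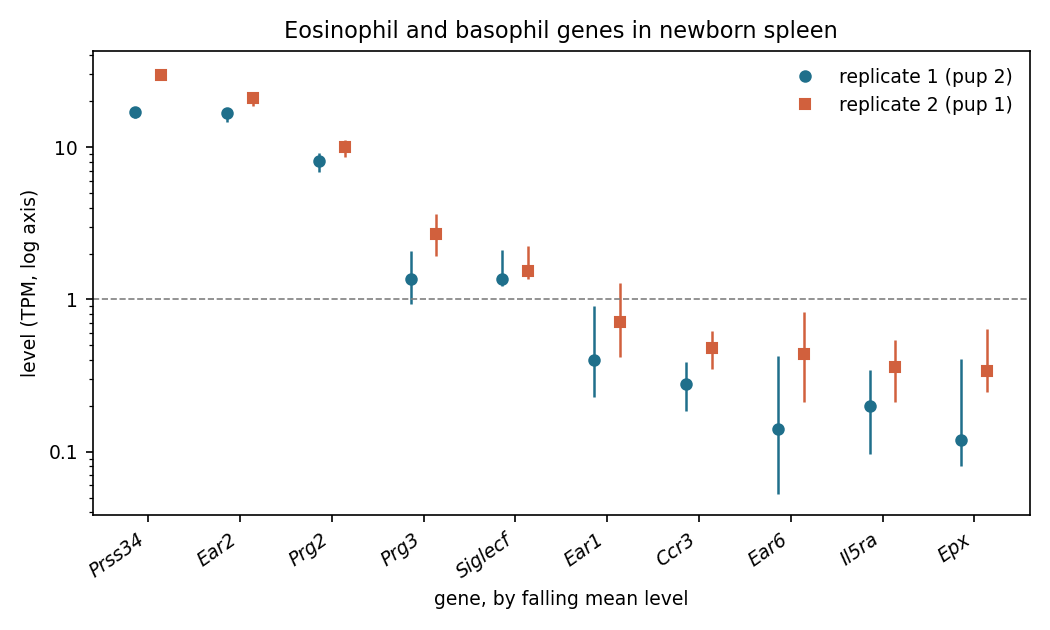
Level of each gene in TPM (log axis) in replicate 1 and replicate 2, ordered by falling mean, with the authors' deposited lower and upper bounds as bars and 1 TPM as a dashed line. Prss34, Ear2 and Prg2 lie above 8 TPM in both libraries, whereas Ear1, Ccr3, Ear6, Il5ra and Epx lie below 1 TPM in both.

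Falling by mean level, the order was Prss34, Ear2, Prg2, Prg3, Siglecf, Ear1, Ccr3, Ear6, Il5ra and Epx. Neighbours in that order were compared by their values in the 2 libraries. Prss34 (17.1 and 29.9 TPM) and Ear2 (16.73 and 21.02) overlapped, though Prss34 was the higher in each library. Prg2 (8.11 and 10.01) lay below both and above all others. Prg3 (1.37 and 2.69) and Siglecf (1.36 and 1.53) also overlapped, with Prg3 the higher in each library but nearly equal in replicate 1. Prg3 and Siglecf lay above the remaining 5, whose values overlapped from each gene to the next. Set among the 21474 protein-coding genes, Prss34 stood above 81.0% of them, Prg2 above 66.7% and Epx above 34.7%.

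Prg2 encodes major basic protein, the main protein of the eosinophil granule core. The gene (ENSMUSG00000027073.5) lies on chromosome 2, 84980461 to 84983632, plus strand. It had 189 counts in replicate 1 and 220 in replicate 2, or 8.11 and 10.01 TPM (9.06 ± 1.34). The authors' bounds on these levels, whose stated credibility was not found in the labels or headers, ran from 6.87 to 9.15 and from 8.59 to 11.2 TPM. Replicate 2 was slightly higher, and the bounds overlapped.

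Prg3, the gene of another major basic protein, starts 4.58 kb downstream of Prg2 on the same strand (ENSMUSG00000027072.9, chromosome 2, 84988215 to 84993886). The coding sequences of the pair were 67.6% identical (440 of 651 aligned nt). Prg3 was lower, with 30 and 49 counts, or 1.37 and 2.69 TPM (2.03 ± 0.933). Prg2 exceeded Prg3 5.92-fold in replicate 1 and 3.72-fold in replicate 2, on the TPM scale.

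Epx encodes eosinophil peroxidase, the heme enzyme that makes hypobromous acid and is the enzyme most particular to eosinophil granules. The gene (ENSMUSG00000052234.2, chromosome 11, 87864000 to 87875536, minus strand) had the lowest mean level of the 10. It had 10 counts in replicate 1 and 26 in replicate 2, or 0.12 and 0.34 TPM (0.230 ± 0.156). Prg2 was 67.6-fold and 29.4-fold above Epx in TPM, so major basic protein RNA was well above peroxidase RNA in both spleens. Epx lies in a cluster of peroxidase genes, where Mpo, the myeloperoxidase of neutrophils and monocytes, stood at 348 and 477 TPM. Mpo exceeded Epx 2900-fold and 1404-fold in TPM. Lpo, the lactoperoxidase gene between them, had 1 count in each library. With so few Epx counts the sizes of the ratios to Epx are loose. By the authors' posterior means Epx stood higher, at 0.22 and 0.43 TPM, which would make these ratios smaller.

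Ear1, Ear2 and Ear6 encode secreted ribonucleases, of which the proteins in eosinophil granules are toxic to cells and viruses; Ear1 and Ear2 transcripts are also known in macrophages. Ear2 (ENSMUSG00000072596.4, chromosome 14, 44102654 to 44103534, plus strand) had 327 and 387.56 counts, or 16.73 and 21.02 TPM (18.9 ± 3.03). The authors' bounds, 14.7 to 18.2 and 18.6 to 22.7 TPM, did not overlap, though the ratio of counts between the libraries did include 1 in its counting interval. Ear2 was the most abundant granule gene in both spleens, at 2.06 and 2.10 times the TPM of Prg2.

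Ear1 and Ear6 were far lower than Ear2 despite the shared sequence. Ear1 (ENSMUSG00000072601.4, chromosome 14, 43818765 to 43875517, minus strand) had 7.82 and 13 counts, or 0.40 and 0.71 TPM (0.555 ± 0.219). Ear6 (ENSMUSG00000062148.6, chromosome 14, 51853699 to 51854643, plus strand) had 3 and 8 counts, or 0.14 and 0.44 TPM (0.290 ± 0.212). Ear2 exceeded Ear1 41.8-fold and 29.6-fold, and Ear6 119-fold and 47.8-fold, in TPM. With so few counts for Ear1 and Ear6, the sizes of these ratios are loose.

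Among the 16 Ear family genes, pseudogenes and Rnase2 genes matched in the files (of 28 symbols looked up), Ear2 held 96.3% and 93.8% of the summed TPM. It was the 1 family gene at 1 TPM or more in both libraries. The remaining reads were few. Ear10, the closest to Ear2 in coding sequence of the 3 genes compared, had 0 and 2.43 counts, and Ear-ps9 had 1.18 and 0. A further 10 had no count in either library, among them Ear14, Rnase2a and Rnase2b; a count of 0 allows up to 0.0906 and 0.0933 CPM (counts scaled to the library total) in replicates 1 and 2. The authors' posterior SD on the count, which measures how reads of uncertain origin were divided, was 0.92 and 1.13 counts for Ear2 and 0.43 and 0.59 for Ear1, and 0 for the other 8 genes. The Ear1 span overlaps Ear-ps9 (43874875 to 43875537) on the same strand. The transcript given all Ear1 counts, Ear1-201 (43818765 to 43819639), does not reach it. On the other strand the spans of both Ear1 and Ear2 overlap long noncoding genes not analysed here. As the use of strand in counting was not stated, any reads from shared bases of these noncoding genes cannot be told apart from those of Ear1 and Ear2.

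The 3 receptor genes were low and summed to 1.84 and 2.37 TPM (2.10 ± 0.375), against 26.9 and 35.2 TPM (31.0 ± 5.90) for the 6 granule genes. Il5ra encodes the interleukin 5 receptor alpha chain, which eosinophils, basophils and B-1 cells carry. The gene (ENSMUSG00000005364.9, chromosome 6, 106710357 to 106749037, minus strand) had 10 and 17 counts, or 0.20 and 0.36 TPM (0.280 ± 0.113). Both values were low, and the authors' bounds overlapped (0.0971 to 0.342 and 0.211 to 0.545 TPM). The files hold 1 Il5ra transcript, Il5ra-201 of 1704 nt, whereas GENCODE M21 also lists transcripts of 3575 and 2271 nt, which were not analysed here.

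The chains of the interleukin 3, interleukin 5 and GM-CSF receptor family were more abundant than Il5ra. These receptors pair an alpha chain of their own with a common beta chain. Csf2ra, the alpha chain for GM-CSF (granulocyte-macrophage colony-stimulating factor), stood at 18.33 and 27.33 TPM, which is 91.6-fold and 75.9-fold above Il5ra. Csf2rb, the beta chain shared by the interleukin 3, interleukin 5 and GM-CSF receptors, stood at 8.74 and 12.48 TPM, 43.7-fold and 34.7-fold above Il5ra. Il3ra, the interleukin 3 receptor alpha chain, stood at 3.82 and 5.48 TPM, and Csf2rb2, the interleukin 3-specific beta chain of the mouse, at 1.75 and 2.19 TPM. Of the 5 chains Il5ra was the lowest in both spleens and the 1 chain under 1 TPM. With 10 and 17 counts of Il5ra, the sizes of the ratios to it are loose.

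Siglecf encodes a sialic acid-binding inhibitory receptor found on eosinophils and on alveolar macrophages. The gene (ENSMUSG00000039013.12, chromosome 7, 43351341 to 43359531, plus strand) had 106 and 112 counts, or 1.36 and 1.53 TPM (1.45 ± 0.120), the closest pair of values relative to the mean among the 10 genes. Of 9 sialic acid-binding lectin genes, 5 stood at 1 TPM or more in both libraries. Cd33, a myeloid family member, stood at 12.38 and 18.01 TPM, and Siglece, of neutrophils and macrophages, at 9.79 and 11.61 TPM. These lay 9.10-fold and 11.8-fold (Cd33) and 7.20-fold and 7.59-fold (Siglece) above Siglecf. Siglecf ranked below Siglecg (4.32 and 5.68 TPM) and Cd22 (2.67 ± 0.0283) too. By mean level it stood above Siglec1 (1.11 ± 0.368), Siglech (1.05 ± 0.120), Mag (0.605 ± 0.148) and Siglec15 (0.0600 ± 0.0424).

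Ccr3 encodes the receptor for the eotaxins and is the main chemokine receptor of eosinophils. The gene (ENSMUSG00000035448.8, chromosome 9, 124021972 to 124031689, plus strand) had 28 and 45 counts, or 0.28 and 0.48 TPM (0.380 ± 0.141). It lies between Ccr1, 53.3 kb away, and Ccr2, 70.3 kb away, with Ccr1l1 (1 count in each library) between Ccr1 and Ccr3. Ccr1 and Ccr2 were more abundant than Ccr3: Ccr1, a receptor of neutrophils and monocytes, stood at 12.73 and 15.89 TPM, and Ccr2, the receptor that brings monocytes out of the marrow, at 8.64 and 12.01 TPM. Ccr1 exceeded Ccr3 45.5-fold and 33.1-fold in TPM, and Ccr2 exceeded it 30.9-fold and 25.0-fold. Of 9 chemokine receptor genes of chromosome 9 that were looked up, 4 stood at 1 TPM or more in both libraries, and Ccr3 was not among them.

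Ligand genes of these receptors, and other cytokine genes such as Il33 that are not, were measured in the same libraries. The cytokine genes of the eosinophil and basophil growth factors had few or no counts: Il5 had 1 count in replicate 1 and 0 in replicate 2, Il3 had none, and Csf2, the GM-CSF gene, had 3 and 4. Eotaxin genes were detected, with Ccl24 at 1.65 and 3.45 TPM and Ccl11 at 1.39 and 1.88 TPM. Ccl5, another CCR3 ligand, stood at 14.71 and 26.1 TPM, and the alarmin gene Il33 at 12.06 and 13.84 TPM. In all, 4 of 11 cytokine and chemokine genes looked up stood at 1 TPM or more in both libraries.

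**Figure D2:**
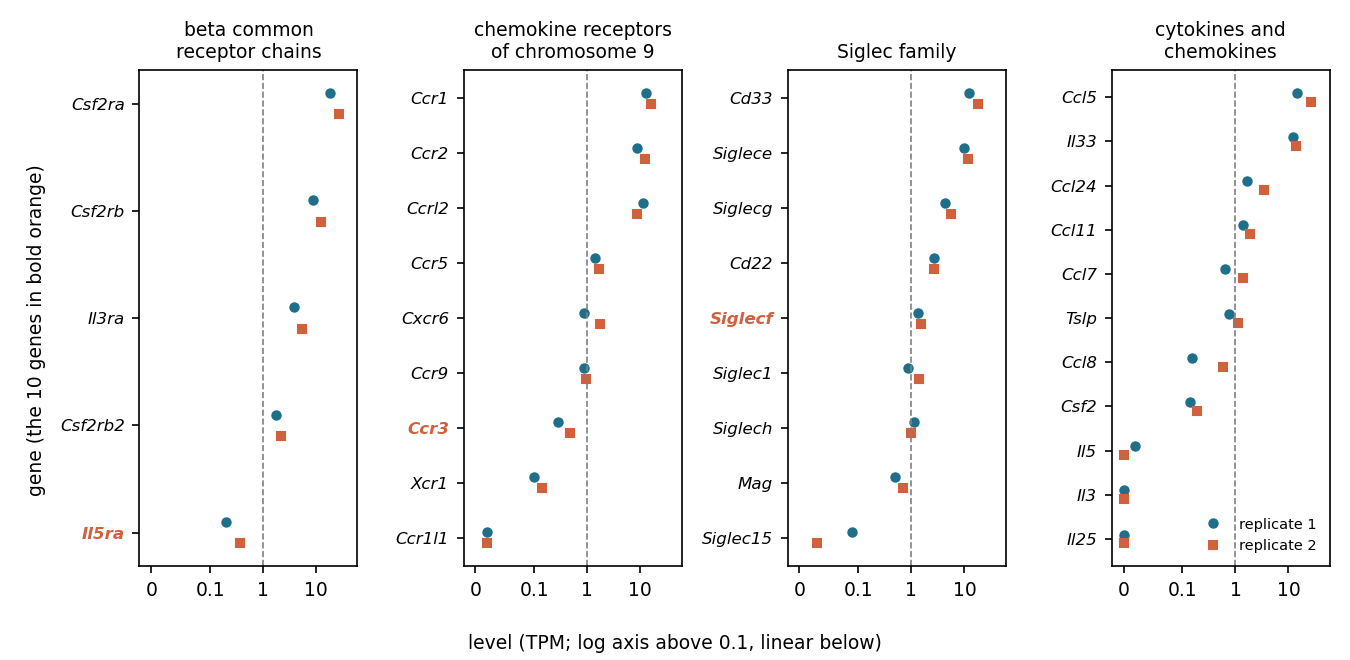
Levels in TPM (log axis above 0.1, linear below) in both libraries for the beta common receptor chains, the chemokine receptors of chromosome 9, the Siglec family and the cytokine and chemokine ligands, with a dashed line at 1 TPM. Il5ra and Ccr3 lie below 1 TPM in both libraries, below Csf2ra and Ccr1, and Il5, Il3 and Il25 lie at or near 0.

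Prss34 encodes mouse mast cell protease 11, a tryptase that basophils make. It was the most abundant of the 10 genes by mean level (ENSMUSG00000056399.1, chromosome 17, 25298394 to 25300165, plus strand). It had 602 counts in replicate 1 and 993 in replicate 2, or 17.1 and 29.9 TPM (23.5 ± 9.05). The authors' bounds, 15.5 to 18.2 and 27.5 to 31.2 TPM, did not overlap, and replicate 2 was the higher.

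Mcpt8, the other protease of mouse basophils, stood near Prss34 in level, at 27.78 and 40.97 TPM (34.4 ± 9.33), which is 1.62 and 1.37 times Prss34. Of 18 basophil genes, Prss34 included, 15 stood at 1 TPM or more in both libraries. Fcer1g, the signalling chain of Fc receptors in many myeloid cells, was the highest of them at 285 ± 82.1 TPM. Cpa3 (carboxypeptidase A3, 198 ± 96.0 TPM) and Hdc (the histamine-forming enzyme, 53.4 ± 21.5 TPM) are made by mast cells as well. Cd200r3, a receptor of basophils and mast cells, stood at 5.76 and 11.98 TPM, the high-affinity IgE receptor chain Fcer1a at 4.06 and 4.34, and Il4 at 2.13 and 3.24. Il13 had no count.

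The tryptase cluster around Prss34 also held mast cell tryptases. Tpsb2, the main mast cell tryptase, stood at 314 and 723 TPM, 18.3-fold and 24.2-fold above Prss34. Tpsab1, 43.1 kb from Prss34, stood at 10.13 and 20.55 TPM. Prss29, Prss32 and Prss33 had no count. Of 9 protease genes of chromosome 17 that were looked up, Prss34 included, 4 stood at 1 TPM or more in both libraries. Among these 9, Prss30, Prss32 and Prss33 lie apart from the cluster, with starts from 23833347 to 23972126.

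A chosen list of regulator genes that act in eosinophil and basophil development was looked up, genes that are also expressed in other blood lineages. All 13 regulator genes of this list stood at 1 TPM or more in both libraries. Id2 (148 ± 31.7 TPM), Gata1 (107 ± 10.3), which red cells and megakaryocytes also need, and Xbp1 (72.4 ± 8.75), which eosinophil and plasma cell development need, were the highest. Cebpe, needed for granule genes of neutrophils and eosinophils, stood at 16.21 and 24.83 TPM, and Gata2, of basophils, mast cells and progenitors, at 11.7 and 20.23 TPM. Each of these 5 lay above Epx, Il5ra and Ccr3 in both libraries.

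Other cells of the spleen express some of the 10 genes, and markers of such cells were measured in the same libraries. All 14 neutrophil genes stood at 1 TPM or more in both libraries and summed to 14686 and 20825 TPM (highest S100a8, 8898 ± 2272, S100a9, 4676 ± 1185, and Retnlg, 1132 ± 145). Of 16 macrophage and monocyte genes, 14 did, and the list summed to 425 and 633 TPM (highest Ly6c2, 138 ± 37.3, C1qb, 110 ± 35.6, and Vcam1, 67.4 ± 12.9). Among these was Spic, the regulator of splenic red pulp macrophages, at 18.56 and 28.76 TPM. Mast cell genes summed to 873 and 1951 TPM, with 12 of 15 at 1 TPM or more in both (highest Tpsb2, 518 ± 289, Cma1, 350 ± 187, and Mcpt4, 228 ± 144). Of 8 alveolar macrophage genes, which include Siglecf, Ear1 and Ear2, 5 did: Chil3 (44.55 and 59.27 TPM), Ear2, Pparg (2.53 and 2.68), Fabp1 (3.42 and 2.07) and Siglecf. The alveolar macrophage gene Car4 had 3 and 0 counts and Krt79 had 6 and 8. Of 9 genes of group 2 innate lymphoid cells, 3 reached 1 TPM in both, and the list summed to 10.2 and 15.2 TPM. Pancreas genes, of an organ next to the spleen, were present in both libraries and summed to 1302 and 425 TPM (highest Ctrb1, 199 ± 122, Clps, 184 ± 132, and Cela2a, 152 ± 105). Of 16 other genes that eosinophils express, most of them shared with other cells, 12 stood at 1 TPM or more in both libraries. The highest were Cd24a (746 ± 89.8), Cd9 (73.2 ± 5.85) and Itga4 (28.9 ± 1.03), each a surface protein of many blood cells. The part of each of these cells in the levels of the 10 genes was not tested.

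All 10 genes had a higher TPM in replicate 2, as did 65.6% of all genes with TPM above 0 in both libraries. For differences between the spleens, counts were scaled by TMM, a trimmed-mean factor in edgeR, and given as log2 CPM with a prior count of 2. A mean count of at least 20 was asked for, which Prg2, Prg3, Ear2, Siglecf, Ccr3 and Prss34 passed and Epx, Ear1, Ear6 and Il5ra did not. Of the 6 that passed, all were higher in replicate 2, beside 50.9% of all 15506 genes that passed. That share was 66.1% when libraries were scaled by size alone and 43.7% with spike-in totals. With scaling to spike-in totals 5 of the 6 were higher in replicate 2, and Siglecf was not. Their median difference was 0.39 on the log2 scale, or 1.31-fold, while the median over all genes was close to 0 and the median absolute difference of all genes was 0.18.

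None of these 6 was 2-fold apart, and of all genes 1.78% were, in either direction. At least 1.5-fold higher in replicate 2 were 3 of the 6, Prss34, Prg3 and Ccr3, where 4.55% of all genes were; this fold was chosen after the values were seen. Scaled to spike-in totals, 1 of the 6 was at least 1.5-fold higher, beside 3.66% of all genes. The spike-ins held 0.002095% and 0.002326% of counts, so that scaling rests on few reads.

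Prss34 had the best determined difference. It was 1.58-fold higher in replicate 2 after scaling, and the exact 95% interval of the ratio of its 2 counts ran from 1.43 to 1.76. This interval (Clopper-Pearson) covers the error of counting alone: the labels mention no molecular identifiers, so several reads can stem from 1 molecule. Epx was 2.50-fold higher by its scaled counts, with an interval from 1.17 to 5.80, but its mean count was under 20. Those were the 2 of 10 genes whose interval lay above 1. The share of all genes with such an interval was not computed, so how unusual this count is cannot be told.

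The other 8 intervals included 1. They were narrow for Ear2 (1.14, 0.981 to 1.32), Prg2 (1.12, 0.916 to 1.37) and Siglecf (1.01, 0.771 to 1.34). Prg3 (1.57, 0.976 to 2.56) and Ccr3 (1.54, 0.942 to 2.57) had nearly the ratio of Prss34 on far fewer counts. Ear1 (1.56, 0.600 to 4.34), Il5ra (1.63, 0.706 to 3.99) and Ear6 (2.56, 0.615 to 15.0) had intervals that a difference in either direction would fit. With TMM scaling, no difference beyond counting error was detectable at this depth for these 8 genes. With scaling by library size alone, added after seeing the data, the intervals of Ear2 (1.05 to 1.42), Prg3 (1.05 to 2.74) and Ccr3 (1.01 to 2.76) also lay above 1, so that 5 of 10 did.

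**Figure D3:**
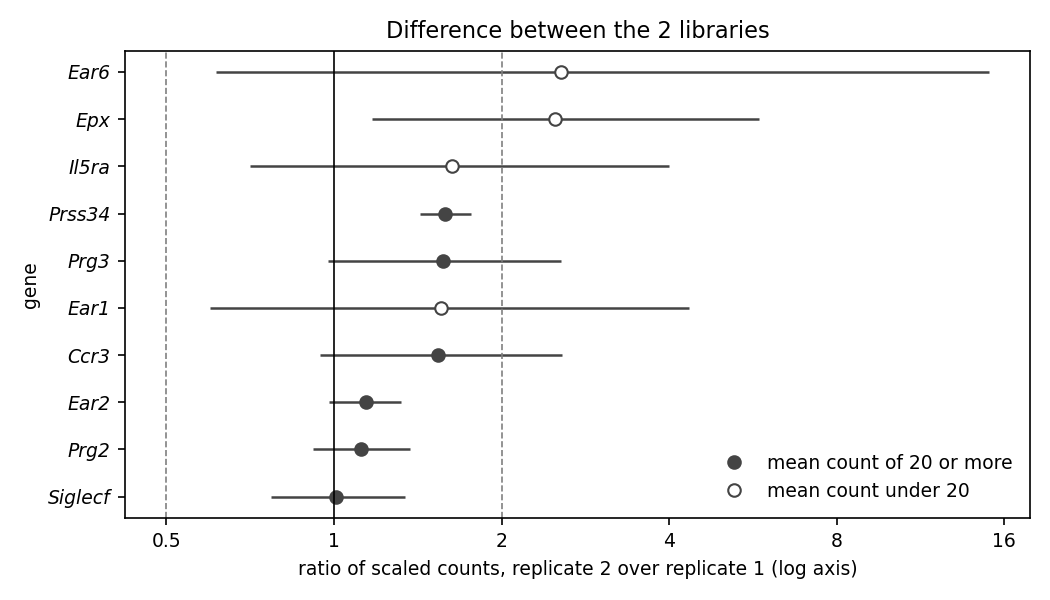
Ratio of TMM-scaled counts, replicate 2 over replicate 1 (log axis), for each of the 10 genes, with the exact 95% counting interval as bars and a line at 1. The intervals of Prss34 (1.43 to 1.76) and Epx (1.17 to 5.80) lie above 1, and the other 8 include it.

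Markers of other cells differed between the same libraries. The 15 basophil genes other than Prss34 that passed the count filter had a median log2 difference of 0.42 toward replicate 2, and 14 of 15 were higher there (15 with scaling by library size alone). Mcpt8 was 1.34-fold higher in replicate 2 and Cd200r3 1.88-fold, while Fcer1a was 0.969-fold. All 13 mast cell genes were higher in replicate 2, with a median of 0.92, and 6 of them were at least 2-fold higher. Tpsb2 was 2.09-fold higher in replicate 2. The differences of the measured basophil and mast cell genes were thus mostly in the same direction as that of Prss34. Cpa3 (1.85-fold) and Hdc (1.62-fold) are counted in both lists, so the lists are not independent. Of all genes that passed, 50.9% were higher in replicate 2, and 1.78% were at least 2-fold apart in either direction.

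Neutrophil genes (14 of 14 higher in replicate 2, median 0.33) and macrophage and monocyte genes (14 of 15, median 0.40) leaned the same way. Of the other eosinophil-expressed genes, 10 of 14 were higher in replicate 2 (9 with spike-in totals) and 4 lower, and the list's summed TPM was 977 and 885, with Cd24a at 809.87 and 682.86. Pancreas genes went the other way: all 11 were at least 2-fold higher in replicate 1, with a median of -1.89 toward replicate 2. Of the regulators, 9 of 13 were higher in replicate 2 (10 with library size alone), among them Gata2 (1.57-fold) and Cebpe (1.39-fold), while Gata1 was 0.785-fold. All 6 cytokine and chemokine genes that passed were higher in replicate 2 (5 of 6 with spike-in scaling), with Ccl7 at 1.87-fold and Ccl24 at 1.86-fold. The part of cell makeup, neighbouring pancreas tissue or library preparation in the differences of the 10 genes was not tested.

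**Figure D4:**
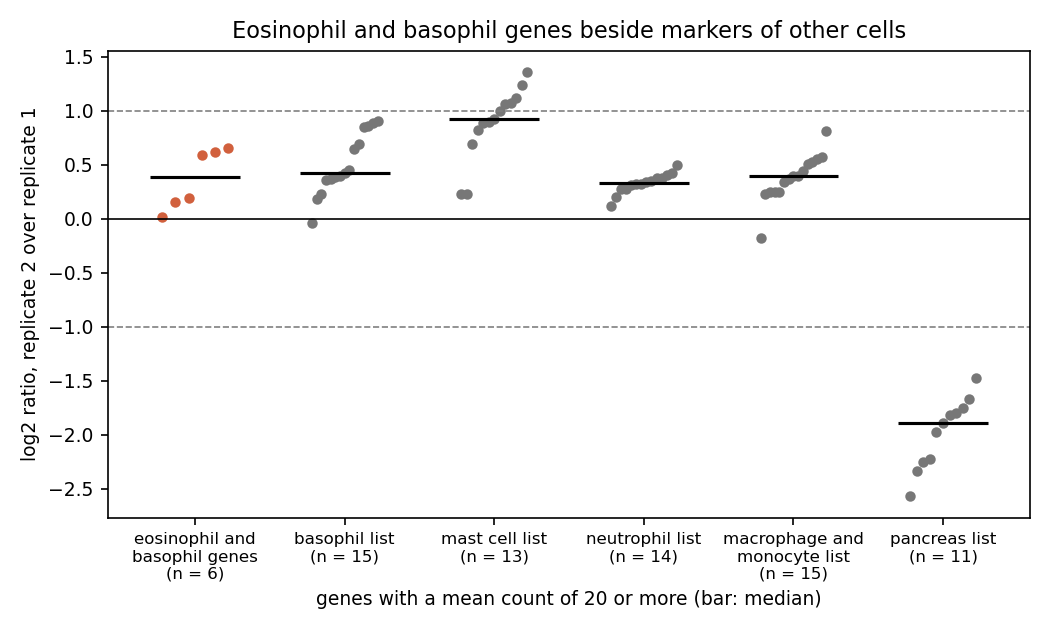
Log2 ratio of replicate 2 over replicate 1 for the eosinophil and basophil genes and for marker lists of other cells without them, each point a gene with a mean count of 20 or more and each bar the median. The medians are 0.39 for the 6 eosinophil and basophil genes, 0.42 for basophil, 0.92 for mast cell and -1.89 for pancreas genes.

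The files hold 18 annotated transcripts of the 10 genes. Prg2, Ear2, Il5ra, Ccr3 and Prss34 have 1 each, so the gene's value is the transcript's. For Epx and Ear1 the deposited estimate gave all of the level to the longer of 2 transcripts, a protein-coding one, in both libraries. By the authors' posterior mean, Epx-201 held 54.5% and 79.1% of Epx, and Ear1-201 held 74.1% and 82.1% of Ear1. For Ear6 the deposited TPM gave 61.84% and 100% to Ear6-201, on 1.67 and 8 counts, and the posterior mean gave it 59.1% and 82.0%.

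Prg3 reads were divided between a coding and a noncoding transcript. Prg3-201, the protein-coding transcript of 949 nt, held 66.87% and 49.43% of the gene's TPM (58.2% ± 12.3), and Prg3-202, a processed transcript of 481 nt, held 33.13% and 50.57%. By counts the coding transcript held 81.8% and 68.5%. The coding transcript held the larger share of counts in both spleens, although in replicate 2 the shares of TPM were almost even.

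Siglecf reads were divided among 3 of its 5 transcripts. Siglecf-203, protein coding, held 45.59% and 73.15% of the gene's TPM (59.4% ± 19.5), and Siglecf-201, also protein coding, held 15.35% and 26.85%. Siglecf-205, a retained-intron transcript, was given 39.07% in replicate 1 and 0% in replicate 2. The posterior SD of its count was 14.39 on 41.42 counts and 12.8 on 0 counts. The division among Siglecf transcripts was thus loosely determined, while the posterior SD of the gene's total count was 0.

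**Figure D5:**
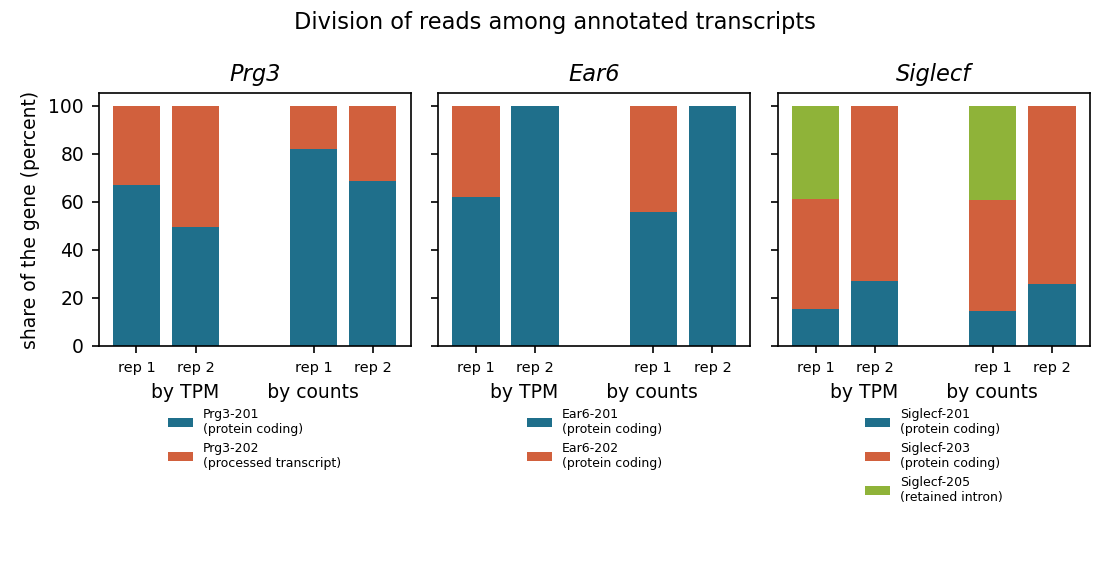
Share of each gene's level (percent) assigned to each annotated transcript in replicates 1 and 2, for Prg3, Ear6 and Siglecf, by deposited TPM and by expected counts. The protein-coding Prg3-201 holds 66.87% and 49.43% of Prg3 by TPM, and Siglecf-205 goes from 39.07% to 0%.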

How the data were processed

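Spleens of 2 pups of 1 pregnancy were sequenced, 1 library each. The labels name different pups but give both samples 1 donor identifier; if they were not separate animals, the spread is technical. Per library there was a gene table and a transcript table, deposited by the authors. The build is mm10 per the labels, and the gene models are GENCODE M4 per the text deposited with each sample. The sources used here do not give aligner, versions or use of strand. Used from the deposited tables were expected counts (estimated, so not always whole), TPM, posterior mean TPM with lower and upper bounds, the posterior SD of counts (a score of how reads were divided) and the percent of each gene in each transcript. Names and coordinates came from GENCODE M21, also GRCm38, by Ensembl identifier (42462 of 43346 genes matched), promoters from a RefSeq table.

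After rounding, edgeR 4.0.16 (R 4.3.3) computed TMM factors without spike-ins and log2 CPM at a prior count of 2, for genes whose mean count reached 20. Of these and the other steps, only the TMM-scaled log2 ratios were tested on simulated counts, which held counting error alone. Python 3.11.15, numpy 2.4.6, pandas 2.3.3, scipy 1.17.1, matplotlib 3.10.9 and Biopython 1.88 served the other steps, and DESeq2 1.42.0 gave another scaling. With totals of 33122187 and 32162543 counts, 1 count equals 0.0302 and 0.0311 CPM.

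The 10 genes and the gene lists were chosen with earlier results of these data known. By rule all 10 genes are named, the 3 highest genes of each list, and any gene of a list of 11 or fewer; Mcpt8, Cd200r3, Fcer1a, Il4, Cebpe, Gata2, Spic, Ear10, Ear14, Ear-ps2, Ear-ps9, Rnase2a and Rnase2b were named beyond it after their values were seen. Alternatives were other scalings, prior counts, filters, detection levels, posterior mean TPM, TPM rescaled to protein-coding genes, other transcript shares and each library alone.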

Additional observations from a re-analysis of the deposited data

How the results depend on the processing

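The number of genes at 1 TPM or more in both libraries was 5, and it moved to 10 at a limit of 0.1 TPM and to 8 at 10 or more expected counts. The number at least 2-fold apart between the libraries was 0 of the 6 that passed the count filter, and 1, Epx, with a mean count of at least 10 (of 9 genes) or without a filter (of 10). The number at least 1.5-fold higher in replicate 2, a measure added after seeing the data, was 3 of 6 and fell to 1 of 6 with spike-in totals. The number of count-ratio intervals above 1 was 2 of 10 and moved to 5 with library size alone. The share of all genes with such an interval was computed for neither scaling. Taking each library alone, the summed TPM ranged from 45.8 to 67.5, and 5 genes stood at 1 TPM in each. Of 40 alternatives for single levels 2 moved by over 1 SD of the 2 libraries. Both were of Siglecf (SD 0.120), to 1.71 TPM by posterior means and 1.65 TPM when rescaled to protein-coding genes. Each library alone lies within 1 SD of the mean of 2 by construction, so those alternatives could not move. Where the SD was wide the measure was lenient: Epx went from 0.230 to 0.325 TPM by posterior means (SD 0.156) without counting as moved. Of 50 alternatives for the ratios of single genes none left the counting interval, and 1, Siglecf with spike-in totals, changed sign. The share of Prg3-201 was 75.2% by counts and that of Siglecf-203 36.3% by posterior means. Library size alone shifted the median of all genes to -0.11 (replicate 1 minus replicate 2, log2) from -0.01, and put 63.8% of 2-fold calls toward replicate 2, against 50.7% with TMM. No paired analysis was possible because the samples form 1 group. Depth limits Ear1, Ear6, Il5ra and Epx, with at most 26 counts.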
